A study of Homo sapiens with 6 samples.

Results

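The transcripts described here are the messenger RNAs encoded by the human mitochondrial genome, in 6 RNA-seq libraries of 2 gastric cancer cell lines. Members were the rows whose gene symbol begins with MT-, and 13 of the 51103 gene rows of the deposited tables met that rule. These 13 rows are the complete set of mitochondrial protein-coding genes. GENCODE 29 annotates 37 genes on the mitochondrial chromosome, and its 2 ribosomal RNA and 22 transfer RNA genes are not analysed here.

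AGS and HGC-27 are established human gastric carcinoma lines. Cells of each line had been infected with lentivirus to overexpress NINJ1, or were negative controls, and RNA was taken with Trizol 48 hours after seeding in 6-well plates. NINJ1 (ninjurin 1) is a membrane protein known for rupturing the plasma membrane at the end of lytic cell death. Each line had 2 NINJ1 libraries and 1 control library, all made from polyadenylated RNA. Nothing in the labels says whether the replicates came from separate cultures, so the p-values speak of the spread among the libraries, which may be purely technical. In the fits with a mean per line and treatment, that spread comes from the 2 NINJ1 libraries of each line. None of it comes from controls, so p-values against a control leave out any spread between control libraries.

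Titles and file names give opposite lines for the 2 NINJ1 replicate 2 libraries. Lines are given here as in the file names. With these lines, 7084 of 17617 genes differed between the AGS and HGC-27 NINJ1 libraries (edgeR's quasi-likelihood test, adjusted p below 0.05). As titled, 0 were called higher and 0 lower in that comparison, and 19 had an unadjusted p below 0.05. Which lines are right was not tested. The titles put 1 library of each file-name line into each NINJ1 group. Any difference between those libraries then enters the spread of that fit, for every gene. With lines as titled, none of the 17617 genes tested was called in AGS (595 had an unadjusted p below 0.05, edgeR's quasi-likelihood test), so every AGS call below, of members, nuclear copies, markers and nuclear genes, is lost under the titles. In HGC-27 the titled lines left 9.17% of genes called higher and 3.03% lower, and the HGC-27 calls kept or lost there are given with the results. NINJ1 itself stood at 19.5 and 15.9 CPM (counts scaled to a common library size by the trimmed mean of M-values, TMM) in the AGS libraries labelled NINJ1, against 28.4 in the AGS control. In HGC-27 it stood at 17.2 and 19.1 CPM in the NINJ1 libraries, against 4.89 in the control. The targeted gene was thus higher with NINJ1 in HGC-27 (log2 change 1.89 ± 0.24 SE, adjusted p = 3.22e-08, and 0.0438 with lines as titled) and lower in the AGS libraries labelled NINJ1 (-0.68 ± 0.19, adjusted p = 0.0148, and 0.884 with lines as titled). The HGC-27 rise rests on 1 control, and both HGC-27 NINJ1 libraries had less NINJ1 than the AGS control. The HGC-27 control also stood apart in GC content, as given below, and the part of this in the rise was not tested. Every AGS direction below is that of libraries labelled NINJ1, in which NINJ1 was not raised.

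The libraries held 12619684 to 18175697 gene counts. The HGC-27 control stood apart from the other 5 libraries. It had 19371 genes with a count, against 22839 to 23396 in the others, a TMM factor of 0.799, against 1.016 to 1.062, and 2.31% of its counts in genes above 60% GC, against 9.25% to 11.3%. Each HGC-27 contrast rests on that 1 control. Among epithelial markers, KRT8 (48.6 to 82.8 FPKM), KRT18 (64.6 to 111.0 FPKM) and EPCAM (2.57 to 7.93 FPKM) were present in all 6 libraries. KRT19 had at most 1 count and CDH1 at most 51 counts in any library. CLDN4 went the other way from these in HGC-27, at 8.46 and 10.1 FPKM in the NINJ1 libraries, against 0.725 FPKM in the HGC-27 control, while KRT8, KRT18 and EPCAM were highest in that control. The 6 blood markers summed to 0.203 to 3.43 FPKM and the 4 endothelial markers to 0.0825 to 0.506 FPKM. The 6 fibroblast markers summed to 3.82 and 3.28 FPKM in the AGS libraries labelled NINJ1, against 10.9 FPKM in the AGS control, and to 5.42 and 5.82 FPKM in the HGC-27 NINJ1 libraries, against 1.1 FPKM in the HGC-27 control. COL1A1 made up most of each sum. PDGFRB stood at 0.777 and 0.707 FPKM in the AGS libraries labelled NINJ1, against 3.9 FPKM in the AGS control. In HGC-27 PDGFRB stood at 0.0193 and 0.0652 FPKM in the NINJ1 libraries, against 0.00771 FPKM in the control.

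The mitochondrial genome is a small circle whose strands are called heavy and light. Each strand is transcribed into long RNAs that carry many genes, and the transfer RNAs between the coding stretches are cut out to release single messengers. A single mitochondrial RNA polymerase, POLRMT, makes all of them, and the level of each messenger also depends on processing, tailing and decay. The encoded proteins are core subunits of respiratory complexes I, III, IV and V, and they assemble with many subunits encoded in the nucleus. MT-ND6 is the single messenger read from the light strand.

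The tails of many of these messengers also complete their reading frames. Several genes end in the first base or bases of a stop codon, and polyadenylation supplies the rest. The last 18 bases of 7 members are shown for how their reading frames end. The messengers of MT-CO1, MT-ND5 and MT-ND6 run on past the bases shown, and that of MT-ND6 is known to lack a poly(A) tail, which bears on its capture in libraries of polyadenylated RNA. The sequences come from GENCODE 29 transcripts (GRCh38), 5′ to 3′ on the strand of the gene, with the stop codon, or the part of it that the genome encodes, in capitals.
MT-ND1, chrM:4245-4262: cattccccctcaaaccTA
MT-CO1, chrM:7428-7445: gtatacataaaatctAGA
MT-CO3, chrM:9973-9990: tctattgatgagggtctT
MT-ND4, chrM:12120-12137: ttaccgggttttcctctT
MT-ND5, chrM:14131-14148: ctactcctaatcacaTAA
MT-ND6, chrM:14149-14166, minus strand: attgctcgggggaatAGG
MT-CYB, chrM:15870-15887: aaatactcaaatgggccT
MT-CO1 and MT-ND6 end in AGA and AGG, which are read as stops only in mitochondria. MT-CO3, MT-ND4 and MT-CYB end in a lone T, and MT-ND1 in TA. MT-ND5 carries a full TAA, and its gene is followed directly, on the opposite strand, by the end of MT-ND6.

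Mitochondrial messengers made up a smaller share of the counts in NINJ1 libraries than in controls of both lines. The 13 members held 3.19% of all counts in AGS NINJ1 replicate 1 (95% Clopper-Pearson interval 3.178% to 3.197%) and 2.78% in replicate 2 (2.776% to 2.794%), against 5.00% in the AGS control (4.993% to 5.016%). In HGC-27 they held 3.75% (3.738% to 3.757%) and 3.39% (3.382% to 3.400%) in the NINJ1 libraries, against 6.50% (6.487% to 6.509%) in the control. These intervals cover counting error only. All 4 NINJ1 libraries lay below both controls. The mean share was 3.28% ± 0.402 in NINJ1 libraries and 5.75% ± 1.06 in controls (SD, n = 4 and 2). The exact two-sided permutation test gave p = 0.133, the smallest value 4 against 2 libraries allow, and 0.349 after Benjamini-Hochberg adjustment over 34 such tests.

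The similar fall in share had a different make-up in each line. Leaving out MT-CO1, the other 12 members held 2.35% and 2.06% of counts in the AGS libraries labelled NINJ1, against 3.60% in the AGS control. In HGC-27 they held 2.68% and 2.48% in the NINJ1 libraries, against 2.81% in the control. MT-CO1 alone held 1.06% and 0.911% of counts in the HGC-27 NINJ1 libraries, against 3.68% in their control. On the log2 scale the HGC-27 share was lower by a value of -0.86 with MT-CO1 and of -0.16 without it, the total also taken without it. In AGS the share changed by -0.74, and MT-CO1 held 0.842% and 0.728% in the libraries labelled NINJ1, against 1.40% in the control.

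**Figure D1:**
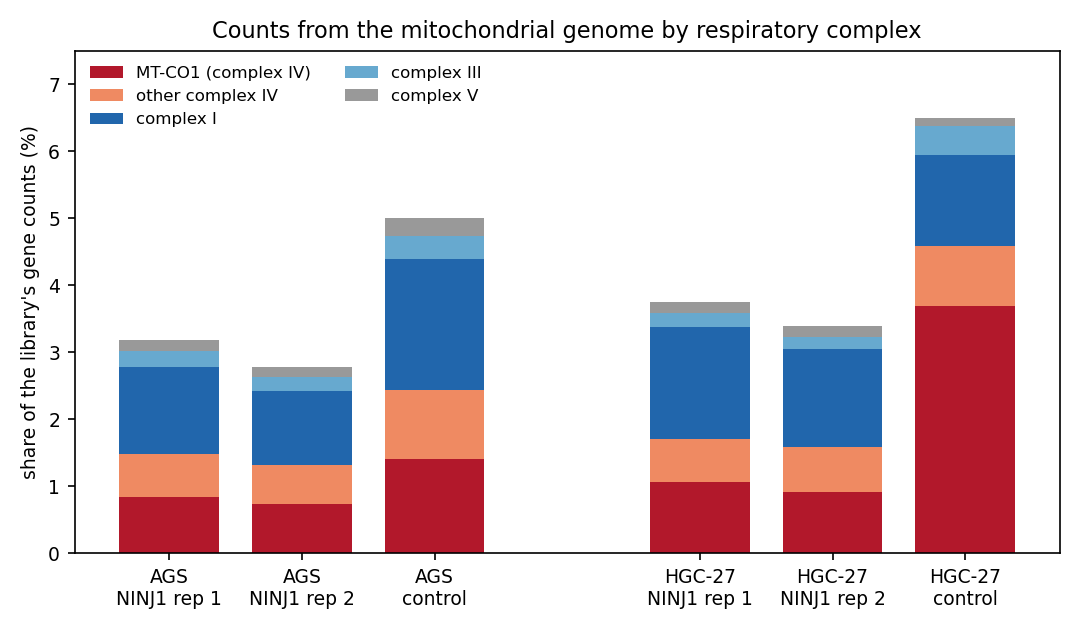
Share of each library's gene counts (%, y axis) that came from the mitochondrial genome, stacked by respiratory complex with MT-CO1 drawn apart, for the 2 NINJ1 libraries and the control of AGS and of HGC-27. The NINJ1 libraries reach 2.78% to 3.75% and the controls 5.00% and 6.50%, and in the HGC-27 control the MT-CO1 segment takes 3.68%.

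The highest members were alike in 5 of the 6 libraries. Levels between genes are compared as FPKM, which divides the count by gene length and library total. MT-CO1, MT-CO2 and MT-ND4 held the 3 highest ranks among all genes of the AGS libraries and of both HGC-27 NINJ1 libraries. In the HGC-27 control, the order was MT-CO1, MT-CO3, MT-ND4, MT-CYB and MT-CO2, at ranks 1 to 5. Of the 13 members, 12 were among the 41 highest genes of every library. MT-ATP8 was the exception, with ranks from 6646 to 12897.

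**Figure D2:**
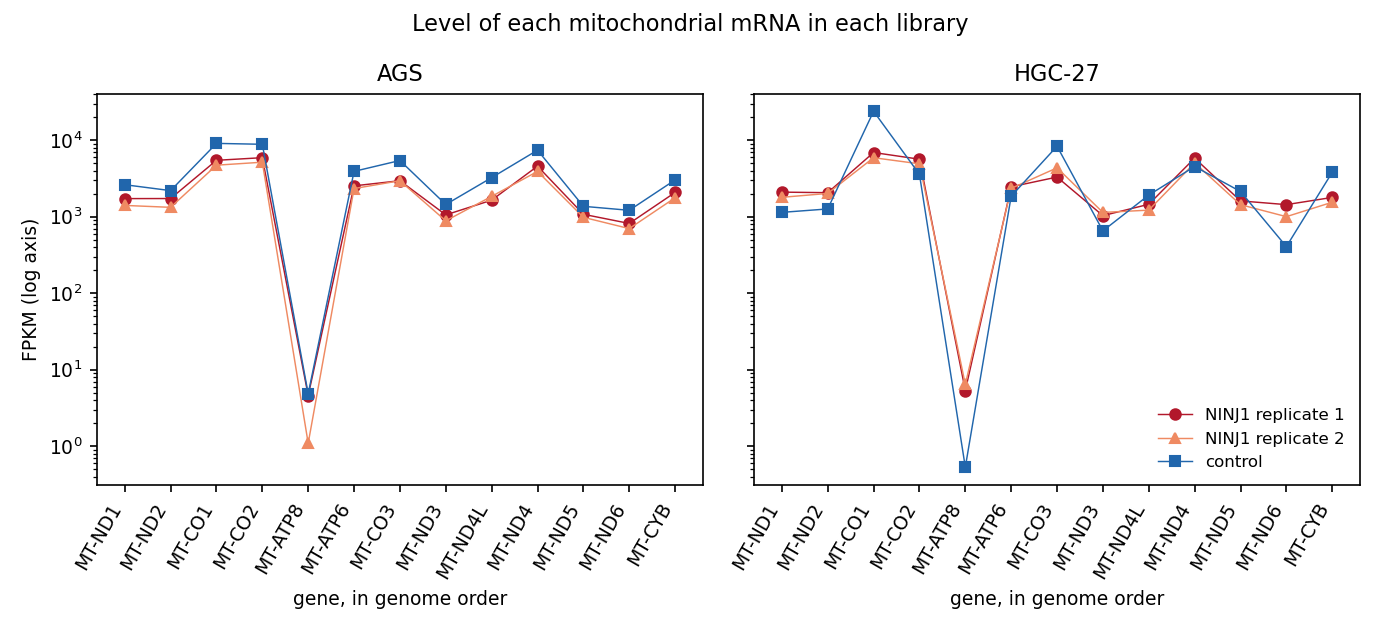
FPKM (log axis) of each of the 13 mitochondrial messengers, in genome order, in each library of AGS (left) and HGC-27 (right). In AGS the control lies above or level with both NINJ1 libraries at each gene, while in HGC-27 the control crosses them, high at MT-CO1, MT-CO3 and MT-CYB and low at MT-ND6, MT-ND1 and MT-ND3, and MT-ATP8 is the low point of every library.

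In the AGS libraries labelled NINJ1, 12 of the 13 members fell and none rose. Over all 17617 genes tested, 9.3% were called lower and 5.73% higher in this contrast (edgeR's quasi-likelihood test, adjusted p below 0.05). The 12 log2 changes ran from -0.95 to -0.47, with a median of -0.74 and an SD of 0.15, beside a median of 0.004 over all genes tested. MT-ATP8, with too few counts, was not called (-0.83 ± 0.82, adjusted p = 0.547). The changes were as alike between the members as the 2 AGS libraries labelled NINJ1 were alike: the SD of the 12 log2 differences was 0.19 and 0.13 for either of these libraries against the control, and 0.14 between the pair. All 3 fibroblast markers that could be tested, COL1A1, PDGFRB and DCN, were called lower in the same contrast, and their part in the result was not tested. DCN had 0 counts in both AGS libraries labelled NINJ1 and 7 in the AGS control. Of the markers not tested, LUM had 0 counts in each AGS library. COL1A2 had 0, 0 and 1 counts and COL3A1 had 2, 1 and 6 (NINJ1 replicates 1 and 2, then control). Without AGS NINJ1 replicate 2, 9 of the 12 calls were kept, and MT-ND2, MT-ND3 and MT-ND5 were lost. DESeq2 called 11, all but MT-ND6 (adjusted p = 0.132). The 12 calls were lost when the titles set the lines, and with limma on log2(FPKM + 1) only 2 of the 12 were kept, MT-ND4L and MT-ATP6.

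Of the 13 members, 7 encode subunits of complex I, the NADH dehydrogenase that feeds electrons into the respiratory chain. MT-ND4, a proton-pumping subunit and the most abundant of the 7, stood at 4580 and 3911 FPKM in AGS NINJ1 libraries, against 7413 FPKM in the AGS control. Both were below the control, a log2 change of -0.86 ± 0.12 (adjusted p = 4.74e-06). In HGC-27 it stood at 5832 and 5052 FPKM in the NINJ1 libraries, against 4534 FPKM in the control, and it was not called (-0.13 ± 0.13, adjusted p = 0.362). The FPKM order and the fitted sign differ there while the TMM factor of the HGC-27 control enters the fitted value, and the sign turned to 0.26 on unscaled FPKM and to 0.23 with a GC correction.

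MT-ND4L, a small subunit whose gene overlaps MT-ND4 by 7 bases on a shared messenger, fell in both lines. It stood at 1646 and 1845 FPKM in AGS NINJ1 libraries, against 3243 FPKM in the AGS control (-0.95 ± 0.13, adjusted p = 1.63e-06). In HGC-27 it stood at 1454 and 1219 FPKM in the NINJ1 libraries, against 1918 FPKM in the control (-0.92 ± 0.13, adjusted p = 1.53e-07). The HGC-27 call was lost with lines as titled. The difference between the lines was -0.03 ± 0.19 on the log2 scale. Although both reading frames sit on one messenger, MT-ND4L had 0.359, 0.472 and 0.437 of the MT-ND4 level in the AGS libraries (NINJ1 replicates 1 and 2, then control). In HGC-27 that ratio was 0.249 and 0.241 in the NINJ1 libraries, against 0.423 in the control.

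MT-ND5, also a proton-pumping subunit, fell in both lines. It stood at 1076 and 982 FPKM in AGS NINJ1 libraries, against 1368 FPKM in the AGS control (-0.47 ± 0.12, adjusted p = 0.00786), the smallest AGS change of the 12. HGC-27 values were 1610 and 1437 FPKM in the NINJ1 libraries, against 2137 FPKM in the control (-0.88 ± 0.12, adjusted p = 9.67e-08). With lines as titled the HGC-27 call was lost too. The AGS call was lost without either AGS library labelled NINJ1 (adjusted p = 0.0699 without replicate 1 and 0.227 without replicate 2).

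MT-ND6 moved in opposite directions. This membrane subunit of complex I stood at 817 and 700 FPKM in AGS NINJ1 libraries, against 1213 FPKM in the AGS control. In HGC-27 it stood at 1439 and 1002 FPKM in the NINJ1 libraries, against 407 FPKM in the control. The log2 changes were -0.73 ± 0.14 in AGS (adjusted p = 0.000493) and 1.19 ± 0.16 in HGC-27 (adjusted p = 5.89e-08), and their difference of -1.92 ± 0.21 passed the test (adjusted p = 3.11e-09). The AGS call was lost in DESeq2 (-0.75 ± 0.33, adjusted p = 0.132) and on both FPKM scales, and with lines as titled all 3 calls were lost. Relative to its neighbour MT-ND5, whose gene ends at the adjoining base, MT-ND6 had 0.759 and 0.712 of the FPKM in the AGS NINJ1 libraries, against 0.887 in the AGS control. That ratio was 0.894 and 0.697 in the HGC-27 NINJ1 libraries, against 0.190 in their control. The strand setting of the counting was not given in the sources used here, so light-strand MT-ND6 and heavy-strand RNA over the same bases cannot be told apart.

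The other 3 complex I members were low in the HGC-27 control and high in the AGS control. MT-ND1, at the membrane arm's junction with the quinone site, had 1725 and 1405 FPKM in AGS NINJ1 libraries, against 2621 FPKM in the AGS control. Its HGC-27 levels were 2097 and 1793 FPKM in NINJ1 libraries, against 1140 FPKM in the HGC-27 control. It fell in AGS (-0.80 ± 0.13, adjusted p = 3.27e-05) and rose in HGC-27 (0.37 ± 0.13, adjusted p = 0.0158, a call lost with lines as titled). MT-ND3, a small membrane subunit, had 1057 and 884 FPKM in AGS NINJ1 libraries, against 1445 FPKM in the AGS control. Its HGC-27 values were 1033 and 1138 FPKM with NINJ1, against 654 FPKM in the control. The HGC-27 rise of 0.34 ± 0.13 was called (adjusted p = 0.0289), a call lost in DESeq2 (adjusted p = 0.0873), with lines as titled and without either AGS library labelled NINJ1, which share the estimate of the spread. MT-ND2, another pumping subunit, fell in AGS (-0.58 ± 0.13, adjusted p = 0.00201, and 0.239 without AGS NINJ1 replicate 2) and was not called in HGC-27 (0.29 ± 0.13, adjusted p = 0.0572).

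MT-CYB encodes cytochrome b, the only mitochondrially encoded subunit of complex III. It stood at 2077 and 1770 FPKM in AGS NINJ1 libraries, against 3027 FPKM in the AGS control (-0.71 ± 0.12, adjusted p = 0.000116). HGC-27 values were 1788 and 1547 FPKM in the NINJ1 libraries, against 3809 FPKM in the control (-1.59 ± 0.12, adjusted p = 4.88e-13). NINJ1 libraries were below the control in both lines, and the fall differed between the lines by 0.88 ± 0.18 (adjusted p = 0.000111). On log2(FPKM + 1) that difference was 0.54 and not called (limma, adjusted p = 0.11), and with lines as titled it was 0.70 and not called (adjusted p = 0.305).

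Complex IV, cytochrome c oxidase, takes 3 mitochondrial messengers. MT-CO1 encodes its catalytic subunit, with the heme and copper site that reduces oxygen. It stood at 5463 and 4718 FPKM in AGS NINJ1 libraries, against 9092 FPKM in the AGS control. The HGC-27 NINJ1 libraries had 6910 and 5908 FPKM, against 23889 FPKM in the HGC-27 control. The control was thus the outlying HGC-27 value, while both NINJ1 libraries lay between the AGS values. MT-CO1 fell in AGS by a log2 change of -0.89 ± 0.12 (adjusted p = 1.98e-06) and in HGC-27 by -2.30 ± 0.12 (adjusted p = 6.59e-17), a difference of 1.40 ± 0.18 (adjusted p = 4.37e-08, and 0.113 with lines as titled).

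MT-CO3, a core subunit next to the catalytic one, followed MT-CO1 in HGC-27 at a lower size. Its FPKM was 3300 and 4357 in the HGC-27 NINJ1 libraries, against 8350 in the control (-1.52 ± 0.13, adjusted p = 4.96e-12). In AGS it was 2956 and 2955 with NINJ1, against 5431 in the control (-0.93 ± 0.13, adjusted p = 3.86e-06). MT-CO2, which carries the copper center that accepts electrons from cytochrome c, did not follow. It stood at 5648 and 4915 FPKM in HGC-27 NINJ1 libraries, against 3584 FPKM in the HGC-27 control, and was not called (0.16 ± 0.13, adjusted p = 0.269). In AGS it fell with the rest (-0.73 ± 0.12, adjusted p = 6.02e-05).

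The remaining pair encodes membrane subunits of complex V, the ATP synthase. MT-ATP6, part of the proton channel, stood at 2532 and 2334 FPKM in AGS NINJ1 libraries, against 3917 FPKM in the AGS control (-0.74 ± 0.12, adjusted p = 3.24e-05). In HGC-27 it had 2461 and 2348 FPKM with NINJ1, against 1854 FPKM in the control, and it was not called (-0.02 ± 0.12, adjusted p = 0.893). Its HGC-27 sign turned to 0.37 on unscaled FPKM and to 0.35 with a GC correction.

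**Figure D3:**
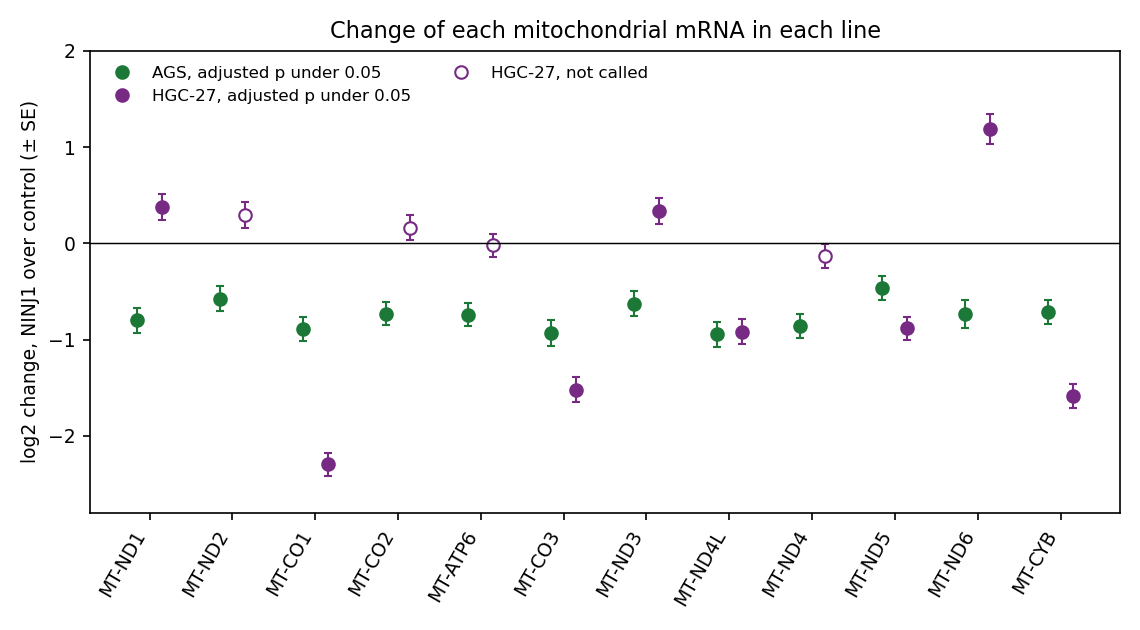
Fitted log2 change, NINJ1 over control (y axis, ± SE), of the 12 well-counted mitochondrial messengers in AGS and HGC-27; filled points passed the adjusted p of 0.05. The AGS points lie in a band from -0.95 to -0.47, while the HGC-27 points run from -2.30 at MT-CO1 to 1.19 at MT-ND6; the signs of MT-ND4 and MT-ATP6 in HGC-27 turn on unscaled FPKM.

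In HGC-27 the members split, with 4 called higher (MT-ND6, MT-ND1, MT-ND3 and MT-ATP8) and 5 called lower (MT-CO1, MT-CYB, MT-CO3, MT-ND4L and MT-ND5). Of all 17617 genes tested, 34.0% were called higher and 29.1% lower in this contrast, so 9 of 13 members called is near the 63.0% of all genes. The 12 well-counted members had a median log2 change of -0.08, from -2.30 to 1.19, with an SD of 1.02, beside a median of 0.124 over all genes. On unscaled FPKM the median of all genes in this contrast shifted to 0.315 and that of the 12 members to 0.32. Pairwise, the SD of the 12 log2 differences was 1.06 and 0.99 for the HGC-27 NINJ1 libraries against their control, and 0.23 between them. With lines as titled, MT-CO1 (-2.44 ± 0.29, adjusted p = 0.0311), MT-CO3 (-1.81 ± 0.31, adjusted p = 0.0366) and MT-CYB (-1.50 ± 0.25, adjusted p = 0.037) were still called and the other 6 were not.

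The GC content of the 12 messengers spans 40.2% to 47.7%. The 5528 other tested genes in that range had a median log2 change of 0.07 in AGS and of -0.46 in HGC-27, with 5th and 95th percentiles of -2.01 and 2.25 in HGC-27. Across the 12 members, GC content and log2 change had a Pearson r of -0.31 in AGS and of -0.46 in HGC-27, with the same values for Spearman's rho. This is a description across genes that share libraries and overlap in base composition. With a GC correction, the member calls in HGC-27 were 7 higher and 5 lower, and in AGS 12 lower. Of all 17617 genes, that fit called 3930 higher and 4745 lower in HGC-27, and 2130 higher and 1445 lower in AGS. The GC content and the low gene number of the HGC-27 control move with the HGC-27 contrast, and their part in it was not tested.

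For 12 of the 13 members the change differed between the lines by the test of the difference itself, AGS change minus HGC-27 change, in which 54.2% of all genes were called, 23.9% positive and 30.2% negative. The difference was positive for 4 (MT-CO1, MT-CYB, MT-CO3 and MT-ND5, each with the larger fall in HGC-27) and negative for 8. MT-ND4L was the exception. Of the 4 positive differences, limma on log2(FPKM + 1) called MT-CO1 alone. MT-CO3 was also lost in DESeq2 (adjusted p = 0.157), and MT-ND5 with a GC correction (0.13, adjusted p = 0.495) and without either AGS library labelled NINJ1. None of the 12 calls held with lines as titled, where no gene at all was called in this comparison. No member and no other gene was called in the fit over both lines (0.0% of genes, edgeR's quasi-likelihood test), where 5 of 13 members and 2257 of 17617 genes had an unadjusted p below 0.05. DESeq2 called 4 members lower over both lines, MT-CO1, MT-CO3, MT-CYB and MT-ND4L, where it called 1.65% of genes lower.

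The ratio of MT-CO1 to its sister messengers does not depend on the library total. MT-CO1 had 0.209 and 0.203 of the summed FPKM of the other 12 in the AGS libraries labelled NINJ1, against 0.223 in the AGS control. In HGC-27 it had 0.241 and 0.220 of that sum in the NINJ1 libraries, against 0.806 in the control. The other 5 libraries thus lay between 0.203 and 0.241, and the HGC-27 control was outside that range. As shares of the mitochondrial counts, MT-CO1 took 26.4% and 26.1% in the AGS NINJ1 libraries, against 28.0% in the AGS control. In HGC-27, values were 28.4% and 26.9% in the NINJ1 libraries, against 56.7% in the HGC-27 control. The exact two-sided permutation test between NINJ1 libraries and controls did not pass (0.218 ± 0.0166 and 0.514 ± 0.412, SD, n = 4 and 2, p = 0.267, adjusted p = 0.533). Over both lines the log2 ratio of -1.24 became -0.033 without the HGC-27 control, which leaves all 4 NINJ1 libraries against the AGS control.

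Gene by gene, the ratio in the HGC-27 control was lowest to MT-CO3 and highest to MT-ND6, MT-ATP8 aside. MT-CO1 to MT-CO3 was 2.09 and 1.36 in the HGC-27 NINJ1 libraries, against 2.86 in the control. MT-CO1 to MT-ND6 was 4.80 and 5.90 there, against 58.7 in the control. Within complex IV, MT-CO1 and MT-CO2 were near parity in 5 libraries: their ratio was 0.924 and 0.914 in the AGS NINJ1 libraries, against 1.03 in the AGS control. In HGC-27, values were 1.22 and 1.20 in the NINJ1 libraries, against 6.66 in the HGC-27 control. MT-CO1 to MT-ND4 was the tightest ratio, at 1.19 and 1.21 in AGS NINJ1 libraries, against 1.23 in the AGS control. It was 1.18 and 1.17 in HGC-27 NINJ1 libraries, against 5.27 in the HGC-27 control. Other pairs moved in that control too: MT-CYB to MT-ND4 was 0.307 and 0.306 in the HGC-27 NINJ1 libraries, against 0.840, and MT-CO3 to MT-CO2 was 0.584 and 0.886, against 2.33. MT-ND1 to MT-ND2, both from the start of the coding region, was 1.02 and 0.890 in the HGC-27 NINJ1 libraries, against 0.901 in the control. MT-CO1 to MT-CO2, MT-ATP6, MT-ND4L and MT-CYB was lower in every AGS library than in any HGC-27 library. For each, the exact two-sided permutation test gave p = 0.1, the smallest value possible there (adjusted p = 0.349). The ratios of MT-CO1 to the other members overlapped between the lines.

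**Figure D4:**
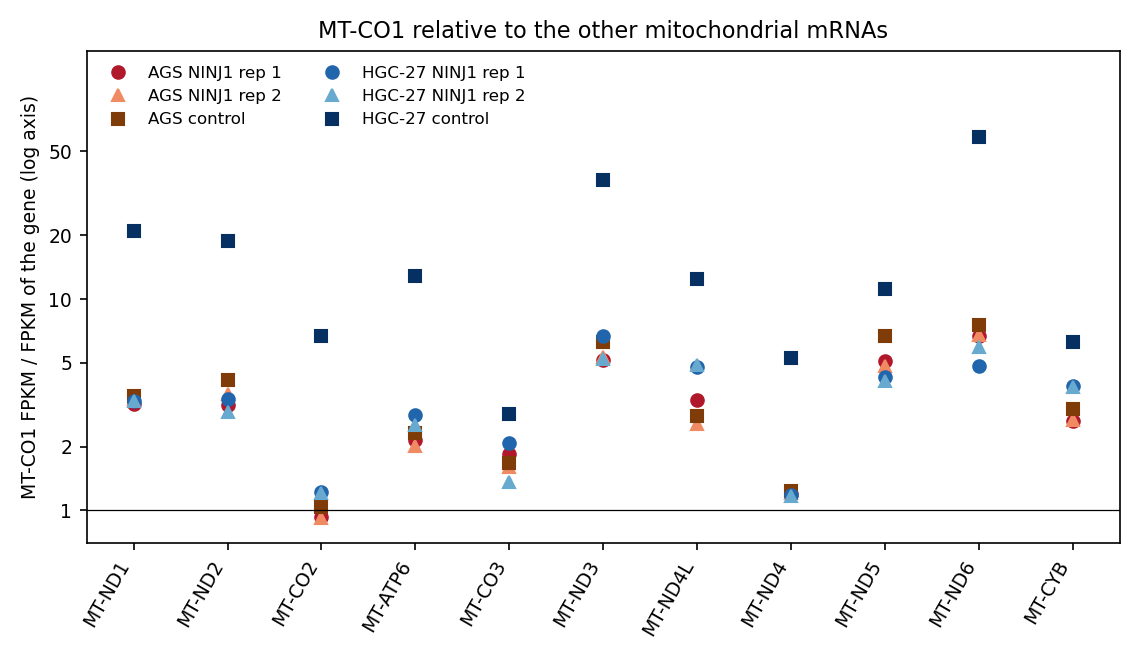
MT-CO1 FPKM divided by the FPKM of each of 11 other mitochondrial messengers (log axis, genome order) in each of the 6 libraries. The HGC-27 control is above the other 5 libraries at all 11, from 2.86 at MT-CO3 to 58.7 at MT-ND6. At MT-CO3 the other 5 run from 1.36 to 2.09. At MT-ND4L the AGS libraries run from 2.56 to 3.32, and the HGC-27 NINJ1 libraries are at 4.75 and 4.85.

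Complex totals showed the same shift. Complex IV messengers took 45.6% and 46.9% of mitochondrial counts in the HGC-27 NINJ1 libraries, against 70.5% in the HGC-27 control. Complex I messengers took 44.4% and 43.2% there, against 20.8% in the control, and complex V messengers 4.47% and 4.72%, against 1.94%. In AGS the complex IV share was 46.4% and 47.1% in the libraries labelled NINJ1, against 48.6% in the control, and the complex I share 40.8% and 39.9%, against 39.1%.

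Between the lines, NINJ1 libraries can be set against each other with 2 on each side. AGS was lower than HGC-27 for 7 members and higher for 1, in a contrast where 20.0% of all genes were called lower and 20.2% higher. MT-ND6 (-0.69 ± 0.12, adjusted p = 2.14e-05) and MT-ND5 (-0.57 ± 0.10, adjusted p = 2.40e-05) differed most, followed by MT-ND2, MT-CO3, MT-ND4, MT-CO1 and MT-ND1, between -0.42 and -0.32. MT-ND4L was higher in AGS (0.38 ± 0.11, adjusted p = 0.00457). None of these 8 calls held with lines as titled, where none of all 17617 genes was called, so that loss does not single out the members. Without AGS NINJ1 replicate 2 most of the 8 calls were lost. The median of the 12 well-counted members then went from -0.33 to -0.21.

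MT-ATP8, the accessory membrane subunit that shares its messenger with MT-ATP6, was counted hardly at all. It had 12 and 3 counts in the AGS NINJ1 libraries, against 14 in the AGS control, and 16 and 20 counts in the HGC-27 NINJ1 libraries, against 2 in the HGC-27 control. MT-ATP6, on the same messenger, had 21098 to 37205 counts in each library, and the FPKM ratio of MT-ATP8 to MT-ATP6 was 0.000287 to 0.00273. The 2 genes overlap by 46 of the 207 bases of MT-ATP8. The overlap is shown, with the start codon of MT-ATP6 and the stop codon of MT-ATP8 in capitals.
MT-ATP8 and MT-ATP6, chrM:8527-8572: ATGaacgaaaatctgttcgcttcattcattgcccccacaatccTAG
The count ratio per library total, NINJ1 over control, was 0.577 in AGS (95% interval 0.26 to 1.29) and 11.1 in HGC-27 (2.85 to 95), from 15 and 14 counts in AGS and 36 and 2 in HGC-27. These intervals pool the reads of both NINJ1 libraries and cover counting error only. The MT-ATP8 call in HGC-27 (3.00 ± 1.10, adjusted p = 0.0179) was lost in DESeq2 (adjusted p = 0.119) and with lines as titled. The cause of the low count was not tested.

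Nuclear copies of mitochondrial genes can take or give reads where the sequences are alike. The tables hold 407 rows for such copies, of which 81 had a count in any library and 4 had 100 or more (MTATP6P1, MTCO1P12, MTND2P28 and MTND1P23), and all 4 lie in one stretch of chromosome 1. MTATP6P1 is 98.5% identical to MT-ATP6, with a longest identical run of 141 bases. It had 14136 and 12850 counts in the AGS NINJ1 libraries, against 26326 in the AGS control, and 13879 and 9182 counts in the HGC-27 NINJ1 libraries, against 6292 in the HGC-27 control. That made 65.0% and 60.9% of the MT-ATP6 count in AGS NINJ1 libraries, against 70.8% in the AGS control. In HGC-27, values were 57.2% and 38.2% in the NINJ1 libraries, against 27.4% in the HGC-27 control. A stretch with 4 of the 10 differing bases is shown to give the spacing that a read must cross to be placed, with the differing bases in capitals.
MT-ATP6, chrM:8647-8726: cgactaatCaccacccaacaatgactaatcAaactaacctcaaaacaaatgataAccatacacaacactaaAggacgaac
MTATP6P1, chr1:633816-633895: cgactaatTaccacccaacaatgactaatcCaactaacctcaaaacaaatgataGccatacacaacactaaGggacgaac

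The copy fell in AGS as its mitochondrial counterpart did (-0.91 ± 0.15, adjusted p = 6.19e-05) and rose in HGC-27 (0.78 ± 0.16, adjusted p = 0.000103, and 0.153 with lines as titled), where MT-ATP6 was not called. MTCO1P12, 98.7% identical to MT-CO1, had far fewer counts, 1912 and 1483 in AGS NINJ1 libraries, against 3146 in the AGS control. In HGC-27, values were 2877 and 3268 in the NINJ1 libraries, against 2973 in the HGC-27 control. It fell in AGS (-0.83 ± 0.14, adjusted p = 5.84e-05) and was not called in HGC-27 (-0.05 ± 0.14, adjusted p = 0.777), where MT-CO1 fell. Its count was 1.86% and 2.38% of the MT-CO1 count in HGC-27 NINJ1 libraries, against 0.444% in the HGC-27 control. MTND1P23 had 145 counts in AGS NINJ1 replicate 2 and 9 to 22 in the other 5 libraries. MTATP8P1, a copy of MT-ATP8, had 0 counts in every library, which allows up to 3 counts in each. Adding the counts of MTATP6P1 to MT-ATP6 and of MTCO1P12 to MT-CO1 left 12 AGS and 9 HGC-27 member calls. Of 17615 genes, that fit called 1011 higher and 1636 lower in AGS, and 5984 higher and 5118 lower in HGC-27. Counts of the other copies were not added. Reads of the 2 genes of such a pair cannot be told apart where they are identical.

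**Figure D5:**
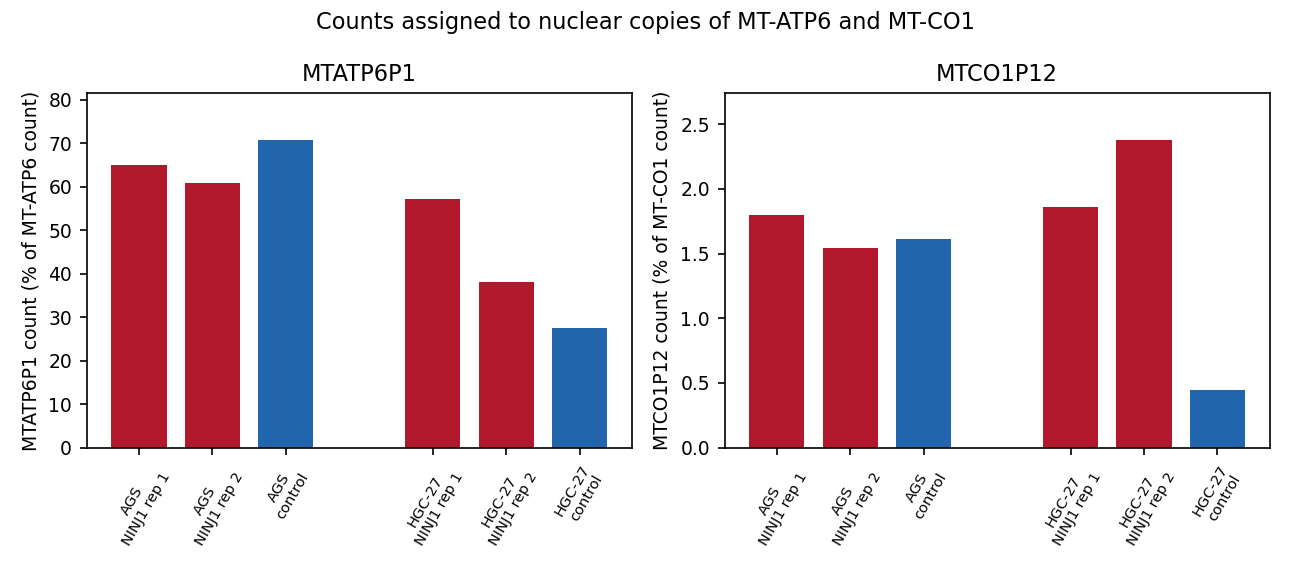
Count of 2 nuclear copies as a percentage of the count of the mitochondrial gene they resemble (y axis, each panel with its own scale), for the NINJ1 libraries (red) and the control (blue) of each line. MTATP6P1 runs from 70.8% in the AGS control to 27.4% in the HGC-27 control, and MTCO1P12 is at 1.54% to 2.38% in 5 libraries and 0.444% in the HGC-27 control.

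Nuclear genes that serve the mitochondrial genome did not show one direction with its messengers. Over all genes, 5.73% were called higher and 9.3% lower in AGS, and 34.0% higher and 29.1% lower in HGC-27. With a GC correction, 3930 of 17617 genes were called higher and 4745 lower in HGC-27. List genes are given below without that correction, and the part of GC content in their HGC-27 changes was not tested. Of 9 genes of mitochondrial transcription, 1 rose in the AGS libraries labelled NINJ1 and none fell, with a median log2 change of 0.18. TFB2M, the factor that opens the promoter for the polymerase, rose (43.7 and 48.4 CPM in AGS NINJ1 libraries, against 32.9 CPM in the AGS control, 0.49 ± 0.16, adjusted p = 0.0363). In HGC-27, 1 rose (11.1%) and 2 fell (22.2%), and with lines as titled POLRMT alone was kept. POLRMT, the polymerase, stood at 152.0 and 161.0 CPM in HGC-27 NINJ1 libraries, against 27 CPM in the control (2.53 ± 0.15, adjusted p = 1.51e-15), and TFAM, which packages the mitochondrial DNA, at 169.0 and 156.0 CPM, against 279.0 CPM (-0.78 ± 0.12, adjusted p = 2.01e-06).

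Of 27 genes of mitochondrial RNA processing and decay, 6 rose (22.2%, beside 5.73% of all genes) and none fell in AGS, with a median of 0.23. Among them were FASTKD2 (0.64 ± 0.17, adjusted p = 0.00839) and FASTKD5 (0.60 ± 0.20, adjusted p = 0.0317), RNA-binding proteins of mitochondrial RNA granules, and PNPT1, a mitochondrial exoribonuclease (0.43 ± 0.14, adjusted p = 0.0326). In HGC-27, 7 rose (25.9%, beside 34.0%) and 16 fell (59.3%, beside 29.1%), with a median of -0.53, and with lines as titled 3 rose and none fell. SLIRP, which with LRPPRC stabilises mitochondrial messengers, stood at 31.9 and 28.6 CPM in HGC-27 NINJ1 libraries, against 158.0 CPM in the control (-2.38 ± 0.14, adjusted p = 8.75e-16). TRMT10C, a subunit of the enzyme that cuts the transfer RNAs at their 5′ ends, stood at 70.8 and 73.0 CPM, against 168.0 CPM (-1.22 ± 0.13, adjusted p = 8.84e-10). With lines as titled neither was called (adjusted p = 0.0621 for SLIRP and 0.0668 for TRMT10C).

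Respiratory subunits encoded in the nucleus were mostly not called in AGS. Of 79 tested, 2 rose (2.53%, beside 5.73% of all genes) and 5 fell (6.33%, beside 9.3%) there, with a median of -0.03, while the 12 called mitochondrial messengers had a median of -0.74. ATP5IF1, an inhibitor of ATP synthase, fell (27.2 and 32.7 CPM in AGS NINJ1 libraries, against 51.1 CPM in the AGS control, -0.77 ± 0.17, adjusted p = 0.00134), as did the complex IV subunits COX6A1 and COX8A. In HGC-27, 19 rose (24.1%, beside 34.0% of all genes) and 42 fell (53.2%, beside 29.1%), with a median of -0.60, and with lines as titled 3 rose and 13 fell. ATP5F1D, an ATP synthase subunit, stood at 81.4 and 90.1 CPM in HGC-27 NINJ1 libraries, against 18.2 CPM in the control, and NDUFS5, a complex I subunit, at 68.9 and 71.2 CPM, against 320.0 CPM. Both were also called with lines as titled (adjusted p = 0.0311 each).

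Calls in the remaining lists were mostly higher in AGS. Of 78 mitoribosomal proteins, which translate the 13 messengers, 6 rose (7.69%, beside 5.73% of all genes) and none fell in AGS (median 0.15). In HGC-27, 27 rose (34.6%, beside 34.0%) and 35 fell (44.9%, beside 29.1%), with a median of -0.23, and with lines as titled 8 rose and 5 fell. Of 20 tested cytochrome c oxidase assembly rows, 4 rose (20.0%) and none fell in AGS (median 0.16), among them COX19 and COX10, which serve copper delivery and heme synthesis for the enzyme, and 3 rose (15.0%) and 5 fell (25.0%) in HGC-27 (median -0.04), where none was called with lines as titled. Of 14 genes of mitochondrial DNA replication, 3 rose (21.4%) and 1 fell (7.14%) in AGS (median 0.06), with TWNK, the helicase, at 51.4 and 60.2 CPM in AGS NINJ1 libraries, against 35.9 CPM in the AGS control. In HGC-27, 6 rose (42.9%) and 5 fell (35.7%), with a median of -0.02, POLG, the DNA polymerase, among those that rose (1.98 ± 0.16, adjusted p = 5.98e-13), the single call of the list kept with lines as titled. Of 13 tested quality-control genes, 3 rose in AGS (23.1%), the chaperones HSPD1 (0.91 ± 0.13, adjusted p = 3.97e-06), HSPE1 and HSPA9, and PINK1, a kinase that marks damaged mitochondria, fell (-0.76 ± 0.21, adjusted p = 0.0115). In HGC-27, 3 of the 13 rose (23.1%) and 7 fell (53.8%), with a median of -0.30, and with lines as titled 1 rose and 1 fell.

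Of 9 regulators of mitochondrial biogenesis, 2 rose (22.2%) and 1 fell (11.1%) in AGS (median 0.36), and 4 rose (44.4%) and 3 fell (33.3%) in HGC-27 (median 0.19). PPARGC1A, a coactivator that drives mitochondrial gene programmes, fell in both lines. It stood at 21.4 and 18.8 CPM in AGS NINJ1 libraries, against 34.4 CPM in the AGS control (-0.77 ± 0.16, adjusted p = 0.000925). In HGC-27 it stood at 39.8 and 38.4 CPM in the NINJ1 libraries, against 118.0 CPM in the control (-1.59 ± 0.14, adjusted p = 2.04e-11), a call lost with lines as titled (adjusted p = 0.085). ESRRA, a nuclear receptor that works with it, had 61.4 and 70.7 CPM in HGC-27 NINJ1 libraries, against 1.45 CPM in the HGC-27 control, and 77.5 and 68.2 CPM in AGS NINJ1 libraries, against 71.3 CPM in the AGS control. With lines as titled, ESRRA was the single gene of this list called in HGC-27 (adjusted p = 0.0311).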

How the data were processed

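Each library has its own deposited table of raw counts and FPKM values by gene, per the file headers. Reads were aligned with HISAT2 to GRCh38 and counted with HTSeq 0.13.5, per the submitters' processing notes, and the strand setting is not given in the sources used here. The authors' FPKM equals the count divided by the annotated gene length and the library's total count to within 1 base of that length, in all 78 values of the 13 members.

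Counts of all genes were tested with edgeR 4.0.16 (R 4.3.3), by the quasi-likelihood test after TMM scaling and filterByExpr with a minimum count of 10. Each line and treatment had its own mean, so the 6 libraries share 1 estimate of spread. That estimate comes from the 2 NINJ1 libraries of each line, since each control is alone in its group. The p-values were Benjamini-Hochberg adjusted over 17617 genes with a threshold of 0.05. The fit was also run on simulated counts, with 200 genes changed in the AGS NINJ1 libraries alone. These counts held no line difference and no control that stands apart, so that run does not bear on the HGC-27 contrast. Alternatives used DESeq2 1.42.0, limma 3.58.1, other scaling, no filter, titled lines, a replicate block, a GC correction and left-out libraries. Shares and ratios were compared with exact permutation tests (SciPy 1.17.1), and sequences and coordinates came from GENCODE 29. All 13 members are described with their values, nuclear copies are named from 100 counts in any library, and list genes are named among the 3 with the smallest p in each direction and line. The members, lists and rules were chosen with earlier results of these data known.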

Additional observations from a re-analysis of the deposited data

Results flagged for a closer look

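For 12 of the 13 mitochondrial messengers, the NINJ1 change differed between AGS and HGC-27 by the test of the difference itself (edgeR's quasi-likelihood test). Given as the AGS log2 change minus the HGC-27 log2 change, the differences were -1.92 for MT-ND6, -1.17 for MT-ND1, -0.96 for MT-ND3, -0.89 for MT-CO2, -0.87 for MT-ND2, -0.73 for MT-ND4 and -0.72 for MT-ATP6. MT-ATP8 had -3.83, from 2 to 20 counts in each library. The difference was 1.40 for MT-CO1, 0.88 for MT-CYB, 0.59 for MT-CO3 and 0.42 for MT-ND5. In this comparison 54.2% of all genes were called, and each HGC-27 value rests on 1 control library that stands apart. None of the 12 calls held with the lines as titled, where no gene at all was called. On log2(FPKM + 1), limma called 9, and the differences for MT-CYB (0.54, adjusted p = 0.11), MT-CO3 (0.26, adjusted p = 0.475) and MT-ND5 (0.078, adjusted p = 0.773) were lost. MT-CO3 was also lost in DESeq2 (adjusted p = 0.157), and MT-ND5 with a GC correction (0.13, adjusted p = 0.495) and without either AGS library labelled NINJ1 (adjusted p = 0.224 without replicate 1 and 0.107 without replicate 2).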

How the results depend on the processing

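With lines as titled, the counts of called members were 0 in AGS (12 with lines as in the file names), 3 in HGC-27 (9), 0 for the difference between the lines (12) and 0 for AGS against HGC-27 in NINJ1 libraries (8). Under the titles no gene at all was called in AGS, for the difference or for AGS against HGC-27. In HGC-27, 9.17% of genes were called higher and 3.03% lower. The share changed by -0.61 in AGS and -0.99 in HGC-27 (log2), MT-ATP8 in AGS turned to 0.13, and AGS against HGC-27 turned to 0.14 for MT-ND2, 0.19 for MT-ND3, 0.0056 for MT-ND1, 0.23 for MT-CO3, 0.77 for MT-ATP8, -0.21 for MT-ND4L and -0.00049 for MT-CO2. Limma called 2 members in AGS on log2(FPKM + 1) and 0 on log2(FPKM + 0.1), and 2 in AGS against HGC-27 on either scale. Of 13739 genes on log2(FPKM + 1), it called 405 higher and 545 lower in AGS. In AGS against HGC-27 it called 2594 higher and 2585 lower there. On log2(FPKM + 0.1) these were 383 and 410, and 2556 and 2504. On both FPKM scales MT-ND4 in HGC-27 turned to 0.26 and MT-ATP6 to 0.37, and with a GC correction to 0.23 and 0.35. MT-ATP6 in HGC-27 also turned to 0.03 with no filter and to 0.19 with the counts of nuclear copies added, an alternative chosen after seeing the data. MT-ATP6 in AGS against HGC-27 turned to -0.065 with a GC correction. The MT-ND4L difference between the lines turned to 0.012 in DESeq2 and with its size factors. DESeq2 called 4 members over both lines. The HGC-27 share change was -0.65 on summed FPKM and -0.16 without MT-CO1, that over both lines -0.45 without MT-CO1, and the MT-CO1 ratio in AGS -0.07 (-0.12 in the main form) against the median of the other 12. The cause of these shifts was not tested.

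Leaving out 1 library at a time, the members called ranged from 2 (without AGS NINJ1 replicate 2) to 10 in AGS against HGC-27, and from 9 (without AGS NINJ1 replicate 2) to 12 in AGS. Over both lines, 0 members were called without any 1 NINJ1 library. Without the HGC-27 control that fit is the AGS contrast alone (12 members called), and without the AGS control the HGC-27 contrast alone (10), so neither is a value over both lines. Over both lines the share change ranged from -0.99 (without the AGS control) to -0.61, and the MT-CO1 ratio from -1.88 to -0.033 (without the HGC-27 control). MT-ATP6 ranged from -0.059 to 0.033 in HGC-27 and from -0.034 to 0.061 in AGS against HGC-27, MT-CO2 there from -0.025 to 0.16, and the MT-ND4L difference between the lines from -0.13 to 0.11. Without its control a line gives no change of its own, and the 4 libraries of undisputed line allow the fit over both lines alone, with 0 members called.

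The replicate numbers do not pair the samples: same-numbered NINJ1 libraries deviated from their group means with r = 0.00841 over 17617 genes. With the number as a block, 12 members were called in AGS, 10 in HGC-27, 12 for the difference, 8 for AGS against HGC-27 and 0 over both lines. Of all 17617 genes, that fit called 955 higher and 1620 lower in AGS, and 5674 higher and 4813 lower in HGC-27. It called 4313 higher and 5339 lower for the difference, 3645 higher and 3638 lower for AGS against HGC-27, and none over both lines. MT-ATP6 in HGC-27 turned to 0.016. Low counts limit MT-ATP8 alone among the members, and their cause was not tested.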
